A study of Mus musculus with 50 samples.

Results

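The genes described here are Hes1, Hes5, Hey1, Hey2, Nrarp and Dtx1, 6 classical transcriptional targets of the Notch receptors, out of 52636 genes in the count tables. They were taken by name, through the Ensembl identifiers paired with the 6 symbols, and all 6 were found (Hes1 ENSMUSG00000022528, Hes5 ENSMUSG00000048001, Hey1 ENSMUSG00000040289, Hey2 ENSMUSG00000019789, Nrarp ENSMUSG00000078202 and Dtx1 ENSMUSG00000029603). RNA was sequenced in 50 libraries of thyroid tissue from male C57BL/6 mice, aged 10 to 12 weeks in the series text and 10 to 14 weeks in the treatment protocol, each given 1 intraperitoneal dose of antibody. The isotype control RW, an antibody to ragweed, was given at 40 mg/kg. The mixture aJ1aJ2, against the ligands Jag1 and Jag2, held 20 mg/kg of each antibody. The receptor mixture aN1aN2 held 5 mg/kg of anti-Notch1 with 10 mg/kg of anti-Notch2, and aN1aN2aN3 held the same doses with 20 mg/kg of anti-Notch3 added. There were 10 groups of 5 libraries: RW, aJ1aJ2 and aN1aN2 at 15 hours, the same treatments at 5 days, RW and aJ1aJ2 at 7 days in a first set, and aJ1aJ2 and aN1aN2aN3 at 7 days in a second set with its own series of sample identifiers, for which no RW group was analysed here. Part of the study's mice received the thyroid hormones T4 (1 µg per g body weight) and T3 (0.05 per g) daily from day 2, and the labels do not say which. If days count from the antibody dose, the 15-hour libraries were taken before that, so hormone may differ between 15 hours and the later times. The antibodies act on the whole animal, no gene was deleted and no cells were sorted, so each value is that of a whole tissue, in which fewer cells of a type and less RNA per cell cannot be told apart. The labels number the thyroids 1 to 5 within a group without naming the mice, so a p-value measures the spread between these libraries, which may in part be technical.

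Notch receptors are cut when a ligand of the Jagged or Delta family on a neighbouring cell binds them, and the released intracellular part joins the DNA-binding protein RBPJ and a Mastermind coactivator to switch target genes on. Hes1, Hes5, Hey1 and Hey2 encode basic helix-loop-helix repressors through which much of the response is carried out. In blood vessels, Hey1 and Hey2 are known for arterial endothelium and for smooth muscle, while Heyl and Notch3 are typical of pericytes and smooth muscle cells, the mural cells of the vessel wall. Nrarp encodes a small ankyrin repeat protein that binds the Notch complex and limits it, and Dtx1 encodes the ubiquitin ligase Deltex, a cytoplasmic regulator of Notch.

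RBPJ recognises the core GTGGGAA, and promoters of 3 of these genes are shown because they differ in it. Of the 6 genes, 4 were matched in the RefSeq promoter table (GRCm38.p6): Hes5, Hey2, Nrarp and Dtx1. The 250 bases before the annotated start are printed 5′ to 3′ on the gene's strand, with the core on either strand in capitals (TTCCCAC is the core on the other strand).
Hes5, chr4:154960673-154960922, plus strand: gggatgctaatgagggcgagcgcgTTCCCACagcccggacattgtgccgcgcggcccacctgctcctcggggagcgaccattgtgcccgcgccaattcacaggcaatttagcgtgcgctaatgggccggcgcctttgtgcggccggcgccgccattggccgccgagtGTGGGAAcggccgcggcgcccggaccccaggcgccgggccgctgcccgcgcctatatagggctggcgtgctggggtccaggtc
Hey2, chr10:30842784-30843033, minus strand: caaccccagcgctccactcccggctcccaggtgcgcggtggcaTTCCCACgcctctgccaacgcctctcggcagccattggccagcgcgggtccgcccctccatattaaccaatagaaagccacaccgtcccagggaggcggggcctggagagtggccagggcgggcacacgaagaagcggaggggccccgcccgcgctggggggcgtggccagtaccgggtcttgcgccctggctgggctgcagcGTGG
Nrarp, chr2:25180508-25180757, plus strand: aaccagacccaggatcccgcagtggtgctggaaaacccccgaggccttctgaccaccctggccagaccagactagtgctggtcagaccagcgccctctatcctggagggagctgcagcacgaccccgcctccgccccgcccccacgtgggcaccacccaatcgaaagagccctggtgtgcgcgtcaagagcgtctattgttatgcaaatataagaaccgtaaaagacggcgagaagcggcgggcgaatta
Hes5 held 2 matches, beginning 83 bases before the start on the gene's strand and 226 bases before it on the other strand. Hey2 also held 2, of which 1 spans the start, so that only its first bases, GTGG, end the printed run. In the windows from 250 bases before to 50 bases after the start, the core was not found in Nrarp or Dtx1, and 6.383% of 32851 promoters of that length held it on either strand. A match is a run of letters and was not tested as a binding site.

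The libraries held 15.3 to 52.8 M counts (M, mega). All 8 thyrocyte markers had counts in every group, but thyroglobulin (Tg), the storage protein of the follicle, took 0.45% to 42.4% of the counts of a library and 9 skeletal muscle genes took 0.0394% to 11.7%. Replicate 3 of RW at 5 days stood apart, with the lowest Tg share (0.45%, against 2.39% to 42.4% in the other 39 libraries outside the second set) and the highest muscle share (11.7%). The second set also stood apart. Its Tg share was 1.15% to 6.5%, and 178 genes had counts in each of its 10 libraries and 0 counts in the other 40, against 3 genes the other way round. The gene Gm38287, which overlaps Nrarp on the opposite strand, was 1 such gene, with 819 counts in the second set and 0 elsewhere. Levels in the second set are therefore set beside the other groups without a test. Values scaled to gene length (FPKM) fell into 2 scaling blocks. RW and aJ1aJ2 at 15 hours were in the first, and the 5-day libraries and aN1aN2 at 15 hours in the second. The sample identifiers of aN1aN2 at 15 hours also run on into those of the 5-day groups. At 15 hours the block and the aN1aN2 treatment cannot be told apart, in counts as in FPKM. This limit holds for every aN1aN2 comparison at 15 hours below and for the change of the aN1aN2 effect with time.

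In every group Hes1 had the highest FPKM of the 6 genes and Hes5 was nearly uncounted. Mean Hes1 FPKM ranged from 11.6 ± 4.64 (SD, n = 5) after aN1aN2 at 5 days to 28.0 ± 5.15 after aN1aN2aN3, and mean Hey1 FPKM from 1.18 ± 0.247 after aJ1aJ2 at 5 days to 3.52 ± 0.833 in RW at 7 days. Hey2 stayed between 0.195 and 0.601 FPKM in the group means, Dtx1 between 0.0762 and 0.732, and Nrarp between 0.0769 and 1.99. These ranges run over both scaling blocks, so they set the genes beside each other and do not compare the groups. All values below are CPM, counts divided by library size and TMM factors over the 50 libraries, which allow comparison of 1 gene between libraries but not of genes with each other.

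**Figure D1:**
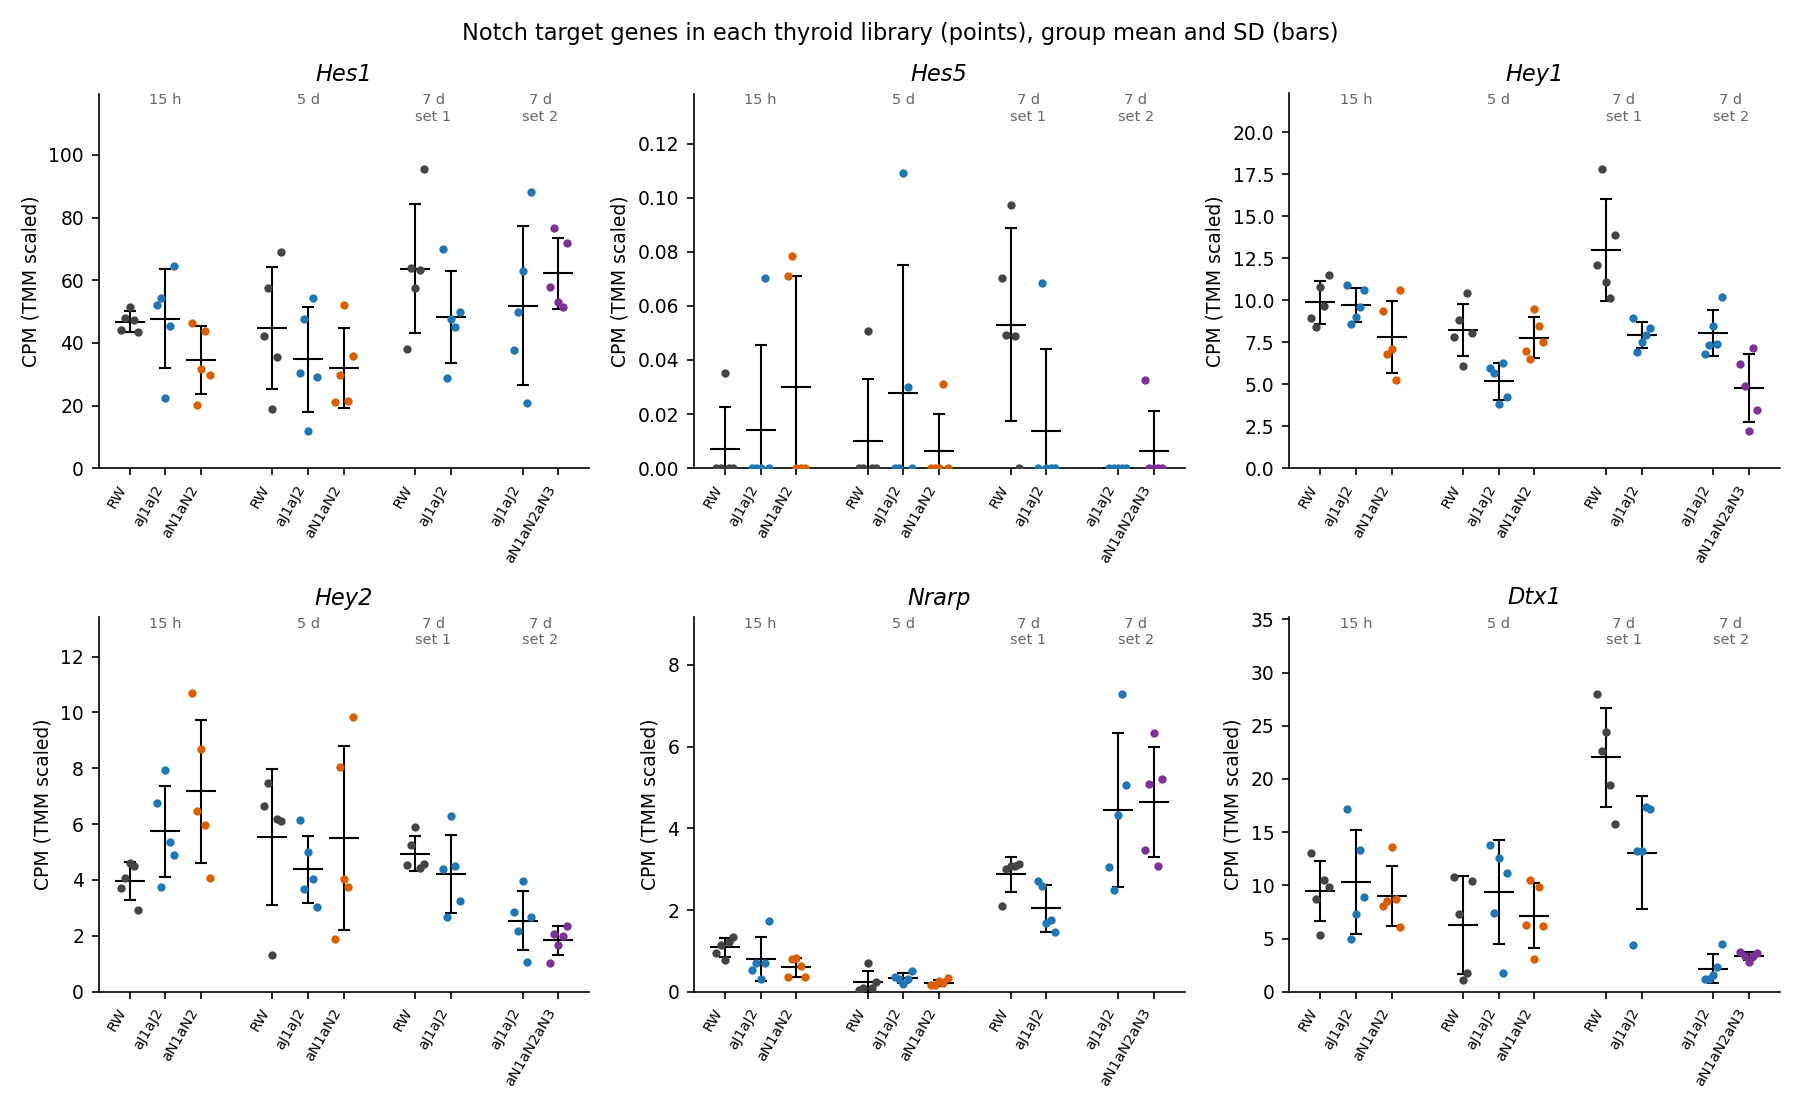
CPM of the 6 genes (vertical axes, linear and from 0) in each of 50 thyroid libraries, in 10 groups by antibody and time; points are libraries and bars are the mean and SD of 5. Hes5 does not pass 0.109 CPM in any library. Mean Hey1 after aJ1aJ2 and in RW is 5.17 and 8.23 CPM at 5 days, 7.93 and 13.0 at 7 days and 9.73 and 9.87 at 15 hours (edgeR adjusted p above 0.05 at each time). Nrarp differs more between the times and sets than between the antibodies, and the 5-day groups are also in another scaling block than the 7-day groups.

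None of the 6 genes passed the threshold in any comparison between treatments. Across the whole table, edgeR's quasi-likelihood test with Benjamini-Hochberg adjustment, called at an adjusted p below 0.05, tested 5 of the 6 genes in each comparison and left out Hes5 for low counts. At 15 hours 0 of 5 members were called after aJ1aJ2, where 0.573% of 18513 genes were, and 0 of 5 after aN1aN2, where 1.68% were. At 5 days the members' count was again 0 of 5 after aJ1aJ2 (0.179% of 18434 genes) and after aN1aN2 (0.0% of genes). At 7 days it was 0 of 5 after aJ1aJ2 against RW in the first set (0.0% of 16954 genes) and 0 of 5 for aN1aN2aN3 against aJ1aJ2 in the second set (19.6% of 18450 genes). Outside the second set, where the share called was at most 1.68%, 0 of 5 is near the background. At an unadjusted p below 0.05 the members' counts in these 6 comparisons were 0, 2, 1, 0, 3 and 1 of 5, in the order given. DESeq2 called 0, 1, 1, 0, 1 and 0 of them, while calling 318, 935, 477, 486, 476 and 4941 genes in all. Limma with library quality weights called 0, 0, 3, 1, 1 and 3 of them and 179, 510, 3475, 1507, 621 and 8214 genes in all, so its higher counts of members came with many more genes called. For the comparisons in which edgeR called no gene at all, 1848 genes (aN1aN2, 5 days) and 1968 genes (aJ1aJ2, first set, 7 days) had an unadjusted p below 0.05.

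**Figure D2:**
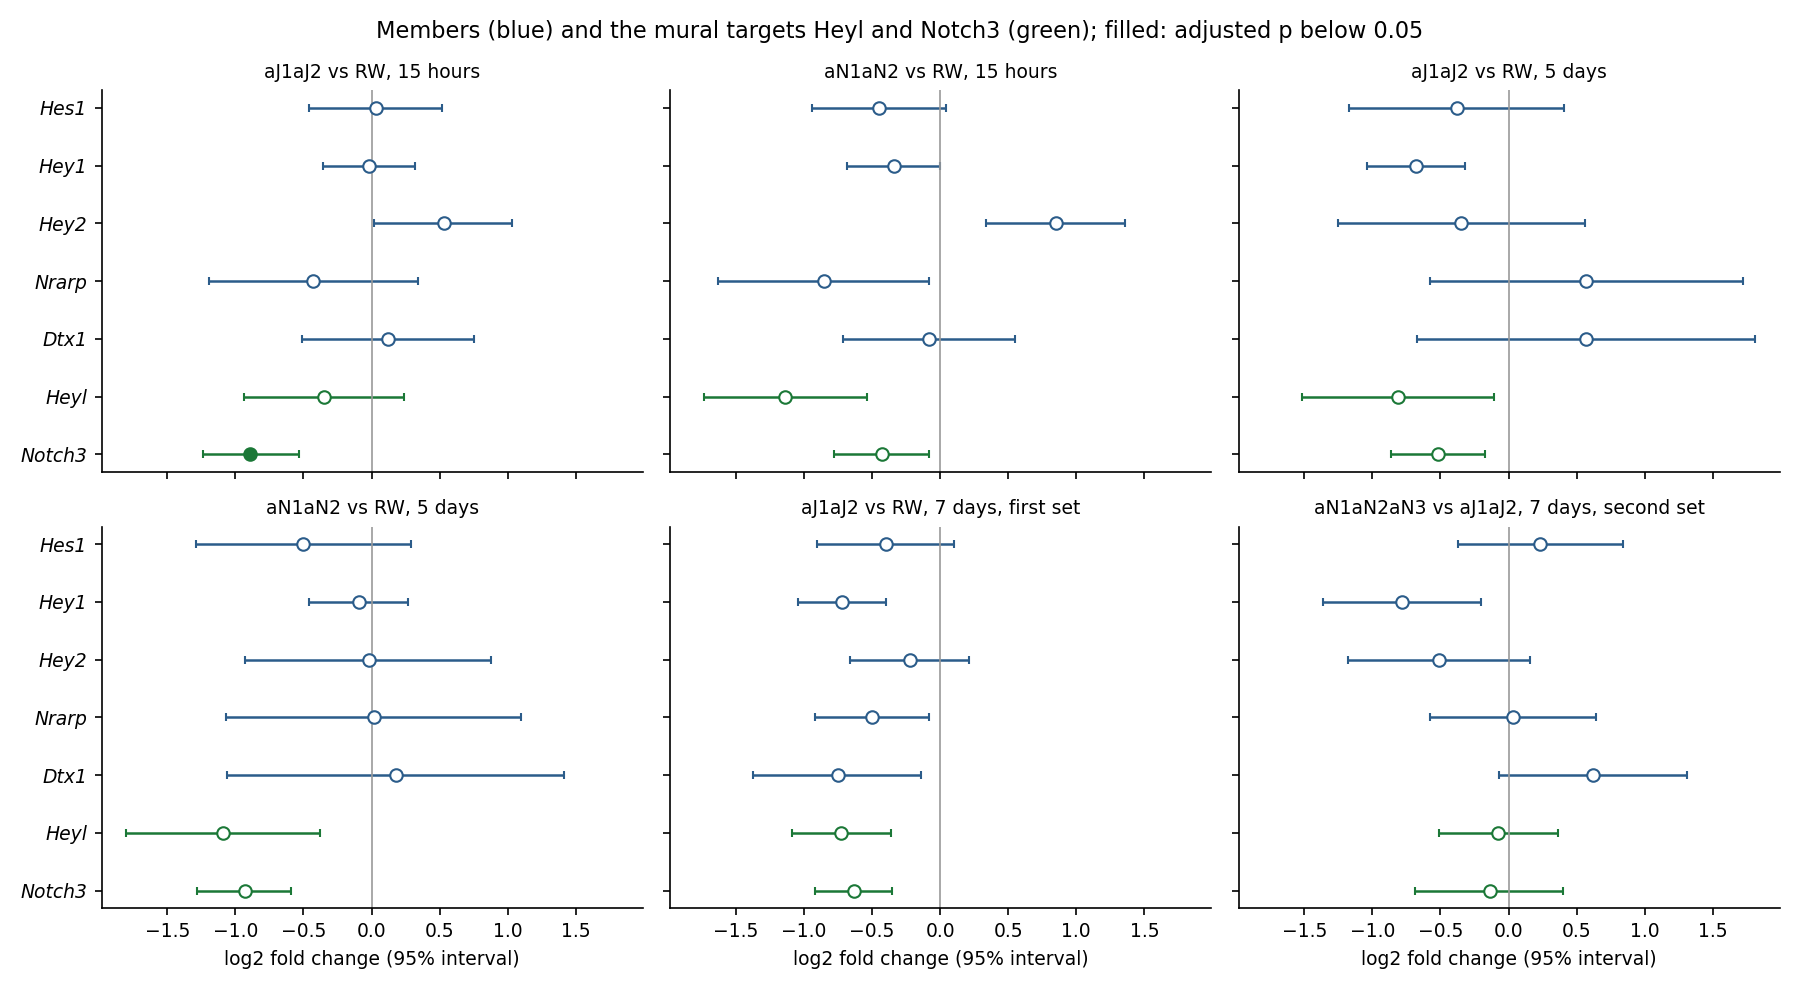
Log2 fold changes (horizontal axes) with 95% intervals from edgeR for 5 members (blue) and for Heyl and Notch3 (green) in 6 comparisons, each with 5 libraries a group. Only Notch3 after aJ1aJ2 at 15 hours is filled (adjusted p = 0.0443), and the members' intervals are widest for Nrarp and Dtx1 at 5 days.

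Hes1, the repressor found in most tissues that use Notch, spread widely between libraries of 1 treatment, with SDs of 10.9 to 25.5 CPM in 9 of the 10 groups, and did not pass the threshold. At 15 hours the 5 RW libraries read 44.0, 48.0, 51.3, 47.4 and 43.4 CPM, the aJ1aJ2 libraries 52.1, 54.3, 22.4, 45.5 and 64.6, and the aN1aN2 libraries 46.5, 20.1, 31.8, 43.9 and 29.6. All 5 aN1aN2 libraries lay below the RW mean of 46.8 ± 3.21 CPM, and the groups overlapped. The log2 fold change was −0.45 after aN1aN2 (SE 0.25, edgeR adjusted p = 0.444) and 0.03 after aJ1aJ2 (SE 0.25, adjusted p = 1.0). At 5 days RW ranged from 19.0 to 69.0 CPM, aJ1aJ2 from 12.0 to 54.3 and aN1aN2 from 21.2 to 52.0. The estimates there were −0.38 (SE 0.40, adjusted p = 0.722) and −0.50 (SE 0.40, adjusted p = 0.822). At 7 days in the first set, aJ1aJ2 averaged 48.3 ± 14.7 CPM against 63.7 ± 20.6 in RW, a log2 fold change of −0.40 (95% interval −0.90 to 0.10, edgeR adjusted p = 0.535). In the second set aN1aN2aN3 averaged 62.2 ± 11.4 CPM and aJ1aJ2 51.9 ± 25.5 (log2 fold change 0.23, adjusted p = 0.616). From highest to lowest mean, the 10 groups ran from RW at 7 days to aN1aN2 at 5 days at 32.0 ± 12.7 CPM, and no neighbours in that order differed by more than the larger of their SDs.

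Hes5, a repressor best known from neural progenitors, had 22 counts over all 50 libraries. It was counted in 14 libraries, with at most 3 counts in 1 of them. The 4 libraries of RW at 7 days with a count read 0.0702, 0.0492, 0.0974 and 0.0487 CPM, and the fifth read 0. The mean of that group, 0.0531 ± 0.0357 CPM, was the highest of the 10. After aJ1aJ2 at 7 days in the second set, 0 counts were found in 5 libraries. By library size alone, 3 counts over that group would be 0.0337 CPM, which is the level a count of 0 allows. This limit leaves out the TMM factors, so its scale differs from that of the other CPM values. That limit covers counting error only. At this depth no difference in Hes5 between antibodies was detectable.

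Hey1, the repressor associated with arterial endothelium, averaged 9.73 CPM after aJ1aJ2 and 9.87 in RW at 15 hours, and at both later times its mean after aJ1aJ2 was lower than in RW, without passing the threshold over all genes in edgeR. At 15 hours the RW libraries read 8.93, 8.43, 10.8, 9.66 and 11.5 CPM and the aJ1aJ2 libraries 10.9, 8.57, 8.98, 9.58 and 10.6. The log2 fold change was −0.02, with a 95% interval of −0.36 to 0.32. By 5 days the RW libraries read 7.78, 8.79, 6.10, 10.4 and 8.05 CPM and the aJ1aJ2 libraries 5.94, 5.66, 3.79, 6.25 and 4.22. All 5 aJ1aJ2 libraries were below the RW mean, and the groups overlapped only through replicate 3 of RW, the library with the low Tg share. This gave a log2 fold change of −0.68 (SE 0.19, edgeR adjusted p = 0.172), from means of 5.17 ± 1.10 and 8.23 ± 1.58 CPM.

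In the first set at 7 days the RW libraries read 12.1, 17.8, 11.1, 10.1 and 13.9 CPM for Hey1 and the aJ1aJ2 libraries 8.93, 6.90, 7.52, 7.95 and 8.33. Here the groups did not overlap, as was so for 3.59% of the genes tested in that comparison. Hey1 was the only member of the 5 without overlap in it. This gave a log2 fold change of −0.72 (SE 0.16, edgeR adjusted p = 0.154). The calls on Hey1 after aJ1aJ2 turned on the method. At 5 days it passed the threshold with DESeq2 (−0.69, adjusted p = 0.0147), with limma's library quality weights (−0.64, adjusted p = 0.00346) and in edgeR with the share of muscle genes as a covariate (−0.66, adjusted p = 0.0375). At 7 days it passed with DESeq2 (−0.71, adjusted p = 0.00978), with the weights (−0.61, adjusted p = 0.0346) and in edgeR with the mural markers as a covariate (−0.90, adjusted p = 0.0446). Over all alternatives the adjusted p ran from 0.00346 to 0.416 at 5 days and from 0.00978 to 0.533 at 7 days, and the estimate stayed below 0 in each. Measured shares of tissue beside this result were 487 to 850 CPM for the sum of 7 endothelial markers in RW at 5 days and 576 to 938 CPM after aJ1aJ2, and 542 to 750 and 528 to 704 CPM at 7 days. With that endothelial sum as a covariate the Hey1 estimate was −0.78 at 5 days (adjusted p = 0.0207, with 471 genes called in all against 33 without it) and −0.69 at 7 days (adjusted p = 0.171).

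After aN1aN2, Hey1 at 15 hours read 9.38, 6.77, 7.10, 5.26 and 10.6 CPM, and the fitted difference of −0.34 (SE 0.17) had an edgeR adjusted p of 0.405. At 5 days it read 6.97, 6.49, 9.45, 8.49 and 7.48 CPM, inside the range of RW (log2 fold change −0.09, 95% interval −0.46 to 0.27). The antibodies were compared with each other directly, with aJ1aJ2 as the reference. At 5 days Hey1 was higher after aN1aN2 than after aJ1aJ2 in 5 of 5 libraries without overlap, against 0.608% of genes without overlap in that comparison. The log2 difference of 0.59 (SE 0.19) did not pass over all genes (edgeR adjusted p = 0.894), where 0.0% of 18434 genes did, 778 had an unadjusted p below 0.05 and DESeq2 called 76. At 15 hours the difference was −0.32 (SE 0.17, adjusted p = 0.478), where 0.13% of genes were called and the groups did not overlap for 2.01%.

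Hey1 in the second set read 6.20, 4.88, 2.19, 7.17 and 3.44 CPM after aN1aN2aN3 and 6.81, 7.33, 8.45, 7.38 and 10.2 after aJ1aJ2. All 5 aN1aN2aN3 libraries were below the aJ1aJ2 mean of 8.04 ± 1.36 CPM, with an overlap of 1 library. The fit gave a log2 fold change of −0.78 (SE 0.30, edgeR adjusted p = 0.0821), and it passed the threshold when all 50 libraries shared 1 fit (−0.75, adjusted p = 0.00721). Among the 10 groups the mean was highest in RW at 7 days (13.0 ± 3.05 CPM) and lowest after aN1aN2aN3 (4.78 ± 2.01) and after aJ1aJ2 at 5 days (5.17 ± 1.10), and those lowest groups differed by less than the larger of their SDs.

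**Figure D3:**
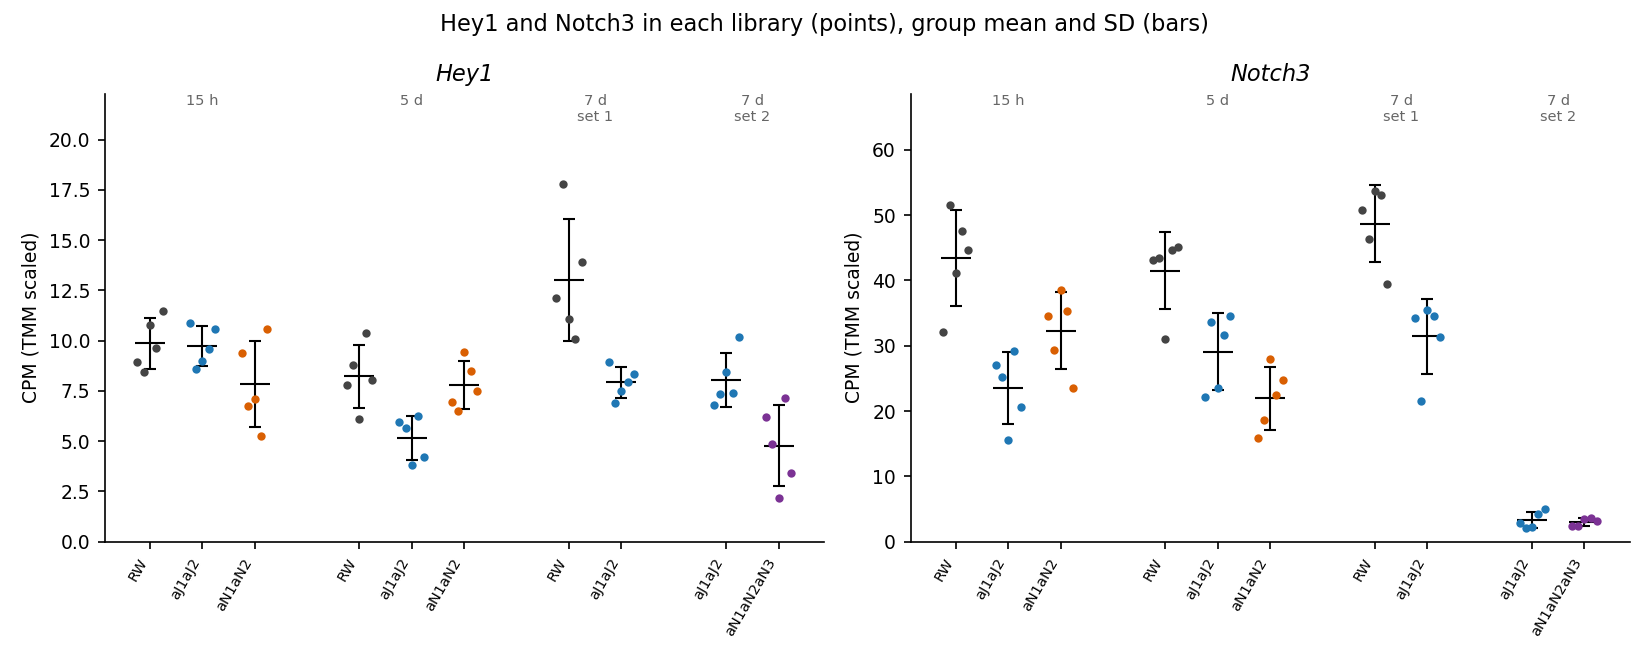
CPM of Hey1 and of the mural target Notch3 (vertical axes, linear and from 0) in each library, by antibody and time; points are libraries and bars are the mean and SD of 5. The mean of Notch3 after aJ1aJ2 is below that of RW at all 3 times, with adjusted p below 0.05 at 15 hours alone, while mean Hey1 at 15 hours is 9.73 against 9.87 CPM.

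The timing of the Hey1 difference was tested as the change of the aJ1aJ2 effect between times. From 15 hours to 5 days the effect moved by −0.68 on the log2 scale (95% interval −1.18 to −0.18, edgeR adjusted p = 0.208), and from 15 hours to 7 days by −0.72 (95% interval −1.22 to −0.23, adjusted p = 0.378). In these tests 0.981% and 0.3% of 19676 genes were called, and none of the 5 members. For the aN1aN2 effect from 15 hours to 5 days, 3.14% of genes were called and again 0 members, with Hey1 at 0.24 (adjusted p = 0.702). The 15-hour part of that effect crosses the scaling blocks. The members at an unadjusted p below 0.05 numbered 1, 1 and 0 in the 3 tests as named, that 1 being Hey1, and DESeq2 called 0 in each. The weighted limma fit called 3, 1 and 1 members in the tests to 5 days of aJ1aJ2 and aN1aN2 and to 7 days of aJ1aJ2, where it called 3216, 1458 and 562 genes in all against 193, 618 and 59 with edgeR. Hey1 was among them for aJ1aJ2, at −0.73 to 5 days (adjusted p = 0.00735) and −0.68 to 7 days (adjusted p = 0.0266).

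Hey2, a repressor of arterial endothelium and smooth muscle, was higher on average after both antibody pairs at 15 hours. The RW libraries read 3.73, 4.08, 4.62, 4.51 and 2.93 CPM, the aJ1aJ2 libraries 6.76, 3.76, 7.93, 5.37 and 4.91, and the aN1aN2 libraries 10.7, 6.48, 8.68, 5.98 and 4.08. After aN1aN2 all 5 libraries exceeded the RW mean of 3.97 ± 0.683 CPM, and the lowest overlapped the RW range. The log2 fold change was 0.85 after aN1aN2 (SE 0.26, edgeR adjusted p = 0.124) and 0.53 after aJ1aJ2 (SE 0.26, adjusted p = 0.786). These comparisons share the RW libraries, and that of aN1aN2 crosses the scaling blocks. DESeq2 called Hey2 after aN1aN2 (0.87, adjusted p = 0.0402), and the alternatives ranged from 0.0402 to 0.251. Groups without overlap made up 5.22% of genes after aN1aN2 at 15 hours and 1.72% after aJ1aJ2, and no member was among them.

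By 5 days the Hey2 means were 5.55 ± 2.43 CPM in RW, 4.38 ± 1.21 after aJ1aJ2 and 5.51 ± 3.30 after aN1aN2. Replicate 3 of RW, at 1.32 CPM, lay far below the other 4 (6.10 to 7.49). The estimates were −0.35 (SE 0.46) and −0.02 (SE 0.46). Without that library the aJ1aJ2 estimate was −0.59 (edgeR adjusted p = 0.457), and with library quality weights in limma it was −0.82 and passed (adjusted p = 0.0491). Without replicate 2 of RW it was −0.22. At 7 days aJ1aJ2 averaged 4.22 ± 1.40 CPM against 4.94 ± 0.629 in RW (log2 fold change −0.22, edgeR adjusted p = 0.665). In the second set all 5 aN1aN2aN3 libraries were below the aJ1aJ2 mean of 2.55 ± 1.06 CPM, with a mean of 1.84 ± 0.507 (log2 fold change −0.51, SE 0.34, adjusted p = 0.307). The change of the effect from 15 hours to 5 days was −0.90 for aJ1aJ2 (SE 0.51, adjusted p = 0.489) and −0.86 for aN1aN2 (SE 0.51, adjusted p = 0.412), and from 15 hours to 7 days it was −0.77 for aJ1aJ2 (SE 0.51, adjusted p = 0.834). None passed in edgeR, while limma with library quality weights called the aJ1aJ2 change to 5 days (−1.27, adjusted p = 0.00814).

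Nrarp, the feedback inhibitor, had few counts, between 2 and 197 in a library. At 15 hours the RW libraries read 0.948, 1.14, 0.775, 1.22 and 1.34 CPM, and the aN1aN2 libraries 0.355, 0.810, 0.830, 0.634 and 0.353. All 5 aN1aN2 libraries were below the RW mean of 1.08 ± 0.224 CPM. Their log2 fold change of −0.85 (SE 0.40) did not pass (edgeR adjusted p = 0.340). That comparison crosses the scaling blocks. After aJ1aJ2 at 15 hours 4 libraries read 0.321 to 0.702 CPM and replicate 5 read 1.73, for an estimate of −0.43 (SE 0.39, adjusted p = 1.0). Without replicate 5 the estimate was −0.89 (adjusted p = 0.728), and without replicate 3 of aJ1aJ2 it was −0.20.

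At 5 days Nrarp had its lowest means for RW, aJ1aJ2 and aN1aN2. The RW libraries had 2, 2, 14, 2 and 8 counts, or 0.0438, 0.0999, 0.711, 0.0782 and 0.237 CPM, and replicate 3, the library with the low Tg share, was the highest. The aJ1aJ2 mean was 0.331 ± 0.115 CPM and the aN1aN2 mean 0.223 ± 0.0735. The log2 fold changes of 0.57 (95% interval −0.58 to 1.72) and 0.02 (95% interval −1.07 to 1.10) had wide intervals. With library quality weights, the estimates after aJ1aJ2 and aN1aN2 were 1.87 (adjusted p = 0.00456) and 1.42 (adjusted p = 0.0456), and they rest on 2 to 17 counts a library. Leaving out single libraries gave 0.26 to 1.51 after aJ1aJ2, the highest without replicate 3 of RW and the lowest without replicate 1. Nrarp's change of effect from 15 hours to 5 days was 1.0 for aJ1aJ2 (SE 0.62, edgeR adjusted p = 0.546) and 0.91 for aN1aN2 (SE 0.64, adjusted p = 0.522). Limma with library quality weights called both changes, at 2.3 (adjusted p = 0.00248) and 2.29 (adjusted p = 0.0171).

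At 7 days in the first set RW read 2.11, 3.00, 3.07, 3.07 and 3.13 CPM and aJ1aJ2 2.71, 2.59, 1.67, 1.75 and 1.47. All 5 aJ1aJ2 libraries were below the RW mean, and the groups overlapped through replicate 1 of RW (log2 fold change −0.50, SE 0.22, edgeR adjusted p = 0.411). Nrarp in the second set averaged 4.45 ± 1.88 CPM after aJ1aJ2 and 4.64 ± 1.35 after aN1aN2aN3 (log2 fold change 0.03, 95% interval −0.58 to 0.64). Beside those values stand 3.23 ± 1.23 and 3.07 ± 0.644 CPM of the opposite-strand gene Gm38287, and the sources used here do not give whether strand was used in counting. The order of the group means followed the time and set, whatever the antibody. It ran from 4.64 CPM in the second set through 2.87 and 2.04 at 7 days in the first set. Below came 1.08 to 0.597 at 15 hours and 0.331 to 0.223 at 5 days. The order also followed the scaling block, as aN1aN2 at 15 hours (0.597 CPM) and the 5-day groups were lowest. For the 5-day groups time and block cannot be told apart.

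Dtx1, the Deltex ubiquitin ligase, was lower on average after aJ1aJ2 at 7 days and varied with the parathyroid markers of the library. The RW libraries of the first set at 7 days read 28.0, 22.6, 24.4, 19.4 and 15.8 CPM and the aJ1aJ2 libraries 4.35, 13.2, 13.2, 17.4 and 17.2. All 5 were below the RW mean of 22.0 ± 4.67 CPM, and the log2 fold change was −0.75 (SE 0.31, edgeR adjusted p = 0.397). The sum of 3 parathyroid markers (Pth, the parathyroid hormone, Gcm2, its lineage factor, and Casr, the calcium sensor) was 6680 to 12300 CPM in those RW libraries. It was 33.7 CPM in the aJ1aJ2 library with the lowest Dtx1 and 4220 to 10400 CPM in the other 4. With that sum as a covariate, an alternative chosen after seeing the data, the Dtx1 estimate was −0.41 (adjusted p = 0.392).

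At 5 days Dtx1 and the parathyroid sum again went together. Dtx1 read 10.8, 7.29, 1.12, 1.72 and 10.4 CPM in RW and 13.8, 7.41, 12.6, 1.80 and 11.2 after aJ1aJ2. The libraries at 1.12, 1.72 and 1.80 CPM had parathyroid sums of 127, 69.8 and 39.6 CPM, and the others of these groups had 4400 to 11000. The log2 fold changes were 0.57 after aJ1aJ2 (SE 0.63) and 0.18 after aN1aN2 (SE 0.63), and 0.17 and −0.15 with the parathyroid covariate. At 15 hours they were 0.12 and −0.08 (SE 0.32 each). Within groups, the log2 CPM of Dtx1 correlated with the log2 parathyroid sum at Pearson's r = 0.76 over 50 libraries (Spearman's rho 0.75, permutation p = 5e-05 and 1e-05, Benjamini-Hochberg adjusted 0.000477 and 0.000262 over 105 relations). Without the 2 libraries farthest from the median of the sum r was 0.80, and it was 0.92 in the 40 libraries outside the second set and 0.16 in the 10 of the second set. Beyond the estimates with the covariate, the part of parathyroid RNA in the Dtx1 values was not tested.

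Dtx1 in the second set was at 1.21, 1.21, 1.61, 2.32 and 4.46 CPM after aJ1aJ2 and at 3.69, 3.40, 2.80, 3.33 and 3.67 after aN1aN2aN3, although the parathyroid sum reached 54600 CPM. All 5 aN1aN2aN3 libraries exceeded the aJ1aJ2 mean of 2.16 ± 1.36 CPM. The fit gave 0.62 on the log2 scale (SE 0.35, edgeR adjusted p = 0.228). Leaving out replicate 5 of aJ1aJ2, the library at 4.46 CPM, gave 1.06 with an adjusted p of 0.0136. With all libraries it also passed under limma's quality weights (1.23, adjusted p = 0.000648), and with the thyrocyte sum as a covariate it was 0.03 (adjusted p = 0.987).

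**Figure D4:**
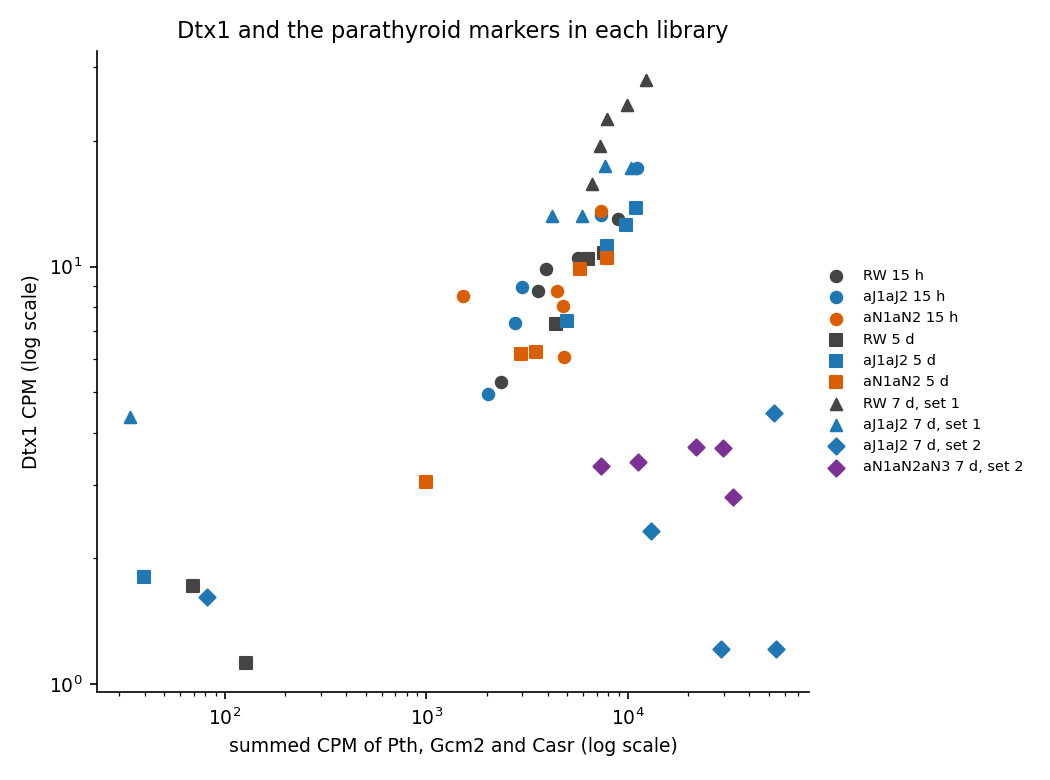
Dtx1 CPM (vertical axis, log scale) against the summed CPM of Pth, Gcm2 and Casr (horizontal axis, log scale) in each of 50 libraries; colours mark the antibody and shapes the time and set. With group means subtracted, r was 0.92 in the 40 libraries outside the second set and 0.16 in the second set. The axes show values without that subtraction, and most libraries of the first set at 7 days lie higher at a like parathyroid sum. Replicate 3 of aJ1aJ2 there had 13.2 CPM of Dtx1 at a sum of 4220, and replicate 2 of RW at 5 days had 7.29 CPM at 4400. Of the second set, 9 libraries lie below and to the right of the run of the other 40, and 1 lies among their lowest.

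The other genes of the pathway were counted list by list. After aJ1aJ2 at 15 hours, 1 of 10 other Notch target genes was called, Notch3, which fell by 0.89 on the log2 scale (SE 0.18, edgeR adjusted p = 0.0443), from 43.4 ± 7.38 to 23.5 ± 5.47 CPM, with no overlap. Heyl averaged 42.2 ± 10.4 CPM against 53.7 ± 19.6 in RW there (adjusted p = 0.996). The list's median was −0.08 against −0.03 over all genes tested, and that of the 5 members was 0.03. Among 9 receptors and ligands Notch3 was again the 1 gene called. No gene of the Hes and Hey relatives (6 of 8 tested), the deltex family (4 of 4), the transcription complex (15 of 15) or the processing enzymes (18 of 18) was called.

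Dll4, the Notch ligand of endothelial tip cells, was lower after aN1aN2 at 15 hours than in RW, at 8.04 ± 1.81 against 16.5 ± 2.97 CPM. The log2 difference was −1.04 (SE 0.18, edgeR adjusted p = 0.00847). Dll4 was the 1 of 9 receptors and ligands called, and its level was also lower than after aJ1aJ2 (−1.0, adjusted p = 0.0446). Psenen, a subunit of gamma-secretase, the enzyme that releases the Notch intracellular part, was lower by 1.08 (adjusted p = 0.0283), as 1 of 18 processing genes. Of 4 arterial endothelial markers 1 was called, the gap junction gene Gja4, lower by 0.95 (adjusted p = 0.0124), and 2 of the 4 estimates were below 0. For Dll4, Psenen and Gja4 the scaling block and the antibody cannot be told apart. Heyl was at 24.5 ± 8.93 against 53.7 ± 19.6 CPM and did not pass (−1.14, adjusted p = 0.0783). Medians were −0.34 for the members, −0.33 for the other Notch targets and 0.01 for all genes tested, with 4 of 5 and 7 of 10 estimates below 0.

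Liver markers also differed at 15 hours. Alb, the serum albumin gene, was at 92.1 ± 53.9 CPM in RW, 6.21 ± 3.18 after aJ1aJ2 and 0.0603 ± 0.0694 after aN1aN2. Both differences passed the threshold (edgeR adjusted p = 0.00847 and 5.28e-05). The summed level of the 3 liver markers was 40.8 to 180 CPM in RW, 4.28 to 15.1 after aJ1aJ2 and 0.47 to 1.5 after aN1aN2. At 5 days, in the scaling block of aN1aN2 at 15 hours, it was 0.203 to 1.42 CPM in RW. After aJ1aJ2 and aN1aN2 at 5 days it reached 2.93 and 5.2 CPM. In the first set at 7 days it was 395 to 1830 CPM in RW and 285 to 899 after aJ1aJ2. The block and the antibody therefore cannot be told apart in the aN1aN2 difference at 15 hours. The part of the liver sum in the members' values at 15 hours was not tested.

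At 5 and 7 days no gene of the 6 pathway lists was called against RW. After aJ1aJ2 at 5 days 3 of 5 members and 7 of 10 other targets were estimated below 0, with medians of −0.35 and −0.48 against −0.06 over all genes tested. After aN1aN2 the counts were again 3 of 5 and 7 of 10, and the medians −0.02 and −0.33 against −0.07. Groups without overlap made up 3.75% of genes after aJ1aJ2 and 2.1% after aN1aN2 and included no member. At 7 days in the first set all 5 members and 8 of 10 other targets were estimated below 0 after aJ1aJ2, with medians of −0.50 and −0.41 against 0.01. Heyl at 22.2 ± 6.07 against 36.7 ± 4.57 CPM and Notch3 at 31.4 ± 5.74 against 48.7 ± 5.91 CPM did not overlap there, with adjusted p of 0.186 and 0.161.

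With aN1aN2aN3 set against aJ1aJ2 at 7 days, genes of the pathway were called in both directions, in a comparison in which 19.6% of all genes were. The 6 pathway lists held 4 of 10, 1 of 9, 5 of 15, 1 of 18, 0 of 5 and 0 of 4 called genes (other targets, receptors and ligands, transcription complex, processing, Hes and Hey relatives, deltex family), and these counts are read against that share. Among 10 other Notch targets 2 rose and 2 fell. Cdkn1a, the p21 inhibitor of the cell cycle, rose by 2.12 on the log2 scale (SE 0.56, edgeR adjusted p = 0.0253), the transcription factor gene Myc rose by 1.25 (adjusted p = 0.0104) and Snai2, a zinc finger repressor of epithelial genes, fell by 1.21 (adjusted p = 0.0439). Of 15 transcription complex genes 4 rose and 1 fell, among them the coactivator Maml3 (0.85, adjusted p = 0.0352) and the corepressors Tle3 (0.75, adjusted p = 0.0279) and Tle2 (0.67, adjusted p = 0.0304). Notch2, one of the receptors the antibodies bind, rose by 0.91 (adjusted p = 0.0252) as 1 of 9 receptors and ligands, and Ncstn, the gamma-secretase subunit nicastrin, by 0.72 (adjusted p = 0.0464) as 1 of 18 processing genes. The members' median was 0.03 against −0.07 over all genes. Notch3 averaged 3.03 ± 0.572 CPM after aN1aN2aN3 and 3.28 ± 1.24 after aJ1aJ2 (edgeR adjusted p = 0.741). Heyl averaged 10.6 ± 2.79 and 10.9 ± 2.56 CPM (adjusted p = 0.834). Groups did not overlap for 15.0% of genes in this comparison and for 0 of 5 members. Markers of several cell types differed in it too, with the endothelial genes Pecam1 (1.15, adjusted p = 0.00166) and Cdh5 (1.09, adjusted p = 0.0456) higher and Emcn (−1.18, adjusted p = 0.0184) and Kdr (−0.99, adjusted p = 0.00933) lower. The arterial gene Gja5 (−0.66, adjusted p = 0.0374) was lower, as were 3 of 7 mural genes, among them Rgs5 (−1.27, adjusted p = 0.00966). The C cell genes Calca (1.06, adjusted p = 0.0259) and Scg2 (1.24, adjusted p = 0.0107) were higher. Of 8 thyrocyte markers 3 were called, with Tg (1.31, adjusted p = 0.0137) and the thyroid transcription factor gene Pax8 (0.78, adjusted p = 0.0222) higher and the iodide transporter gene Slc5a5 (−1.91, adjusted p = 0.0165) lower. Of 6 fat cell genes 3 were lower, among them Fabp4 (−2.28, adjusted p = 0.00281), and of 6 fibroblast genes 2, Col3a1 (−2.67, adjusted p = 0.0149) and Lum (−2.59, adjusted p = 0.0159), as was 1 of 2 B cell genes tested, Ms4a1 (−2.68, adjusted p = 0.0378). The part of these differences in the members' values was not tested.

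The change of an effect with time was also tested for the pathway lists. For Adam17, a protease that cuts the receptor, the aN1aN2 effect at 5 days minus that at 15 hours was −0.52 on the log2 scale (edgeR adjusted p = 0.0153). The 15-hour part of that test crosses the scaling blocks, so block and time cannot be told apart in it. No gene of the 5 pathway lists beside that of the processing genes was called in the 3 tests of change with time.

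Which cells hold the members' RNA cannot be read from tissue libraries, so the members were set beside the summed markers of 15 cell types within groups. Hes1 followed the thyrocyte sum (Pearson's r = 0.71, Spearman's rho 0.64, permutation p = 1e-05 for both, the smallest that 100000 permutations can give, adjusted p = 0.000175 and 0.000262 over 105 relations) and the endothelial sum (r = 0.64, rho 0.62, adjusted p = 0.000315 and 0.000394), and went against the mural sum (r = −0.68, rho −0.55, adjusted p = 0.000175 and 0.00227) and the muscle sum (r = −0.66, rho −0.66, adjusted p = 0.000315 and 0.000394). Without the 2 farthest libraries these were 0.62, 0.62, −0.58 and −0.58. They were 0.52, 0.39, −0.50 and −0.46 in the 30 libraries of the first scaling block and 0.85, 0.82, −0.83 and −0.88 in the 20 of the second. In the 10 libraries of the second set they were 0.52, −0.07, −0.42 and −0.28, so the relation to the endothelial sum did not hold there. Hes1 also went against the Schwann cell (r = −0.49, rho −0.40, adjusted p = 0.0139 and 0.0419), cartilage (r = −0.47, rho −0.44, adjusted p = 0.00938 and 0.0164) and fibroblast (r = −0.47, rho −0.49, adjusted p = 0.0198 and 0.0125) sums and with the liver sum by r alone (r = 0.45, rho 0.29, adjusted p = 0.044 and 0.208). Without the 2 farthest libraries these were −0.37, −0.46, −0.54 and 0.27. Hey2 went against the mural sum (r = −0.56, rho −0.37, adjusted p = 0.00957 and 0.0914) and the muscle sum (r = −0.44, rho −0.28, adjusted p = 0.0404 and 0.258), and Hey1 with none of the 15 (the r farthest from 0 was 0.28, with thyrocytes, adjusted p = 0.160). Nrarp followed no list at an adjusted p below 0.05, its r farthest from 0 being −0.44 with the C cell sum (adjusted p = 0.258), which was −0.04 without the 2 farthest libraries. Besides parathyroid, Dtx1 followed the C cell sum (r = 0.67, rho 0.65, adjusted p = 0.000315 and 0.000394). That r was 0.54 in the first scaling block, 0.72 in the second and −0.31 in the 10 libraries of the second set, so the relation did not hold there. Heyl, taken as a mural target, also followed the thyrocyte sum (r = 0.80) and went against the mural sum (r = −0.71), so these correlations do not separate mural from other targets.

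**Figure D5:**
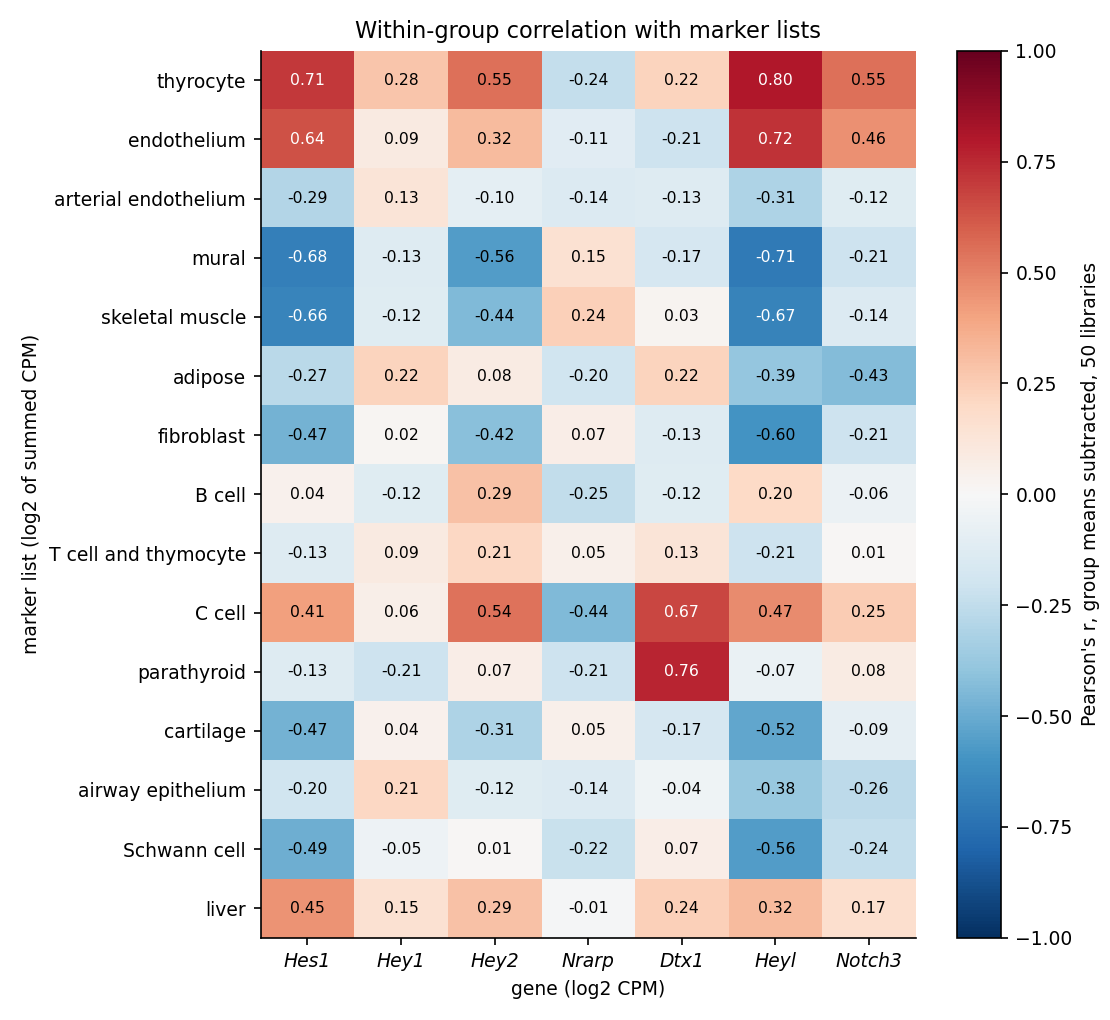
Pearson's r between the log2 CPM of 5 members, Heyl and Notch3 (columns) and the log2 summed CPM of 15 marker lists (rows), with each group's mean subtracted, over 50 libraries; red is above 0 and blue below. The Hes1 and Heyl columns look alike, Hey1 is pale throughout, and the strongest cell of Dtx1 is parathyroid at 0.76.

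With the mural sum as a covariate, added after seeing the data, Hes1 passed the threshold in 3 comparisons. The estimates were −0.83 after aJ1aJ2 at 15 hours (edgeR adjusted p = 0.0491), −0.67 after aN1aN2 at 15 hours (adjusted p = 0.0376) and −1.25 after aN1aN2 at 5 days (adjusted p = 0.00906). With that covariate the genes called in all went from 106 to 3395, from 311 to 1633 and from 0 to 2802 in these comparisons. The mural sum itself had medians of 567 CPM in RW, 339 after aJ1aJ2 and 609 after aN1aN2 at 15 hours, and of 596, 484 and 344 CPM at 5 days. Mural Rgs5 fell after aJ1aJ2 at 15 hours (−1.14, adjusted p = 0.00683), so the covariate itself holds a gene that moved with the treatment.

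Among 16175 genes with a mean of at least 1 CPM, those whose within-group pattern over 50 libraries was most like Hes1 were Phf13, Crip2 and Tmem189 (r = 0.88 each). For Hey1 they were Aif1 (r = 0.67), a macrophage gene, Ms4a7 (r = 0.63) and Pld4 (r = 0.63). For Hey2 they were Gch1 (r = 0.80), Piga (r = 0.78) and Cggbp1 (r = 0.78), for Nrarp Cyth1 (r = 0.66), Med26 (r = 0.66) and Tmem259 (r = 0.65), and for Dtx1 Gm45170 (r = 0.86), Slitrk2 (r = 0.85) and Rasal1 (r = 0.84). Without the 2 libraries farthest from the median of the gene named, r fell to 0.44 to 0.55 for Hey1 and 0.49 to 0.50 for Nrarp. It was then 0.85 to 0.86 for Hes1, 0.65 to 0.69 for Hey2 and 0.79 to 0.81 for Dtx1. Between members, r over the 50 libraries was 0.37 for Hes1 with Hey2, 0.35 for Hes1 with Hey1, 0.10 for Hey1 with Hey2, −0.39 for Hey2 with Nrarp and 0.02 for Hes1 with Nrarp, while Hes1 with Heyl was at 0.74. These are descriptions over libraries that share depth and tissue makeup and were not tested.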

How the data were processed

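Bulk RNA was sequenced in 50 thyroid libraries with single-end reads of 50 bp. The authors deposited, per the file headers, a raw count and an FPKM value per gene and library. The submitters' processing notes name GSNAP and limma. How reads were counted, on which genome build and whether by strand is not given in the sources used here. Deposited FPKM values were scaled in 2 blocks of 30 and 20 libraries, as the ratio of FPKM to count shows, and FPKM served only to compare genes within a group and in 1 alternative. No 2 libraries of a group were duplicates (lowest chi-square per degree of freedom 15.6 over 100 pairs).

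Counts went through the quasi-likelihood test of edgeR 4.0.16 (R 4.3.3), fitted robustly after TMM scaling. Genes were kept by filterByExpr (at least 10 counts, 15 in total), and p-values were adjusted by Benjamini-Hochberg over all genes tested, with a threshold of 0.05. Each fit held the groups of 1 time and set, and the tests of change with time held the 40 libraries outside the second set. Intervals are 95%, from 1.96 SE. Alternatives used DESeq2 1.42.0, limma 3.58.1 (library quality weights, or log2 of FPKM + 0.1), RLE size factors, no count filter, other sets of libraries, a replicate block, covariates and 90 fits without 1 library. Only the edgeR fit was run on simulated counts with known changes, for aJ1aJ2 against RW at 15 hours and at 7 days in the first set. The other methods, the covariates, the tests of change with time and the correlations were not. Correlations used log2 CPM (prior count 2) and log2 of marker sums + 0.5 with group means subtracted, and 100000 permutations within groups (Python 3.11.15, scipy 1.17.1).

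Named genes are the 6 members, Heyl and Notch3, the genes of each list past the threshold (at most the 3 with the largest change of a list), and the 3 genes most like each member among those with a mean of at least 1 CPM. One gene that this rule names is not reported here. Of 16 transcription complex symbols 15 were found. The members and lists were chosen with earlier results of these data known.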

Additional observations from a re-analysis of the deposited data

Results flagged for a closer look

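In groups of 5 libraries, 5 values lay far from the other 4 of their group, with a gap to the nearest of them, relative to the group's range, above Dixon's 95% critical value. Of 53 groups tested, chance alone marks about 1 in 20. Hes5 in replicate 3 of aJ1aJ2 at 5 days was at 0.109 CPM, from 3 counts, against 0 to 0.03 CPM in the others. Hey2 in replicate 3 of RW at 5 days was at 1.32 CPM against 6.10 to 7.49, and Nrarp in the same library was at 0.711 CPM against 0.0438 to 0.237. That library had the lowest share of Tg (0.45%) and the highest share of skeletal muscle genes (11.7%) of the 50, and the part of its tissue makeup in these values was not tested. Nrarp in replicate 5 of aJ1aJ2 at 15 hours was at 1.73 CPM against 0.321 to 0.702. Nrarp in replicate 1 of RW at 7 days was at 2.11 CPM against 3.00 to 3.13.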

How the results depend on the processing

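Over 55 values (5 genes in 11 comparisons) and 1816 alternatives, 1709 kept the direction and side of the threshold, 25 kept the direction and newly passed it, 0 lost it and 82 changed sign. Among those 82, Hes1 after aJ1aJ2 at 15 hours with the mural covariate also passed (−0.83, edgeR adjusted p = 0.0491). The number of members called, 0 in each comparison, became 1 with the mural covariate in 5 comparisons (both antibodies at 15 hours and 5 days, and aJ1aJ2 at 7 days), 1 with DESeq2 after aN1aN2 at 15 hours and aJ1aJ2 at 5 and 7 days, and 1 with the endothelium, thyrocyte and muscle covariates after aJ1aJ2 at 5 days. It was 1 in the second set with all 50 libraries in 1 fit, and 0 to 1 there without single libraries. With library quality weights it was 3 after aJ1aJ2 at 5 days, 3 in the second set, 1 after aN1aN2 at 5 days, 1 after aJ1aJ2 at 7 days, and 3, 1 and 1 for the changes with time of aJ1aJ2 to 5 days, aN1aN2 to 5 days and aJ1aJ2 to 7 days. The marker covariates were chosen after seeing the data. The limma fit on FPKM was not run for aN1aN2 at 15 hours or its change with time, which cross the scaling blocks. The cause of these changes was not tested.

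Replicate numbers did not pair the libraries in every comparison. In each, some same-numbered pair correlated below 0.1, the lowest from −0.585 to −0.0875, and 0 to 2 of 5 libraries correlated best with their own number. For aN1aN2 against RW at 15 hours same-numbered pairs had a mean r of 0.4, against −0.0955 for other pairs. For aJ1aJ2 against RW at 5 days these were 0.352 and −0.0257. In the other comparisons the mean r of same-numbered pairs was at most 0.0163. With the replicate block 0 members were called in any comparison, and the signs that changed were Hes1 after aJ1aJ2 at 15 hours (−0.02), Hes1 in the aN1aN2 change with time (0.06) and Nrarp in the aJ1aJ2 change to 7 days (0.02).

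The other changes of sign follow. After aJ1aJ2 at 15 hours Hes1 was −0.04, −0.83, −0.07 and −0.03 with the endothelium, mural, thyrocyte and muscle covariates and −0.02 on FPKM. Hey1 there was 0.01 with RLE, without the filter, with DESeq2 and on FPKM, and 0.06 with weights, and Dtx1 −0.36 with the mural covariate. Dtx1 after aN1aN2 at 15 hours was 0.03 with the parathyroid covariate and 0.06 with weights. At 5 days after aN1aN2 Hey2 was 0.16, 0.21 and 0.14 with the endothelium covariate, the muscle covariate and weights, Nrarp −0.0 with DESeq2, and Dtx1 −0.15 with the parathyroid covariate and −0.37 with weights, while Dtx1 after aJ1aJ2 was −0.48 with weights. Hes1 after aJ1aJ2 at 7 days was 0.02 with the endothelium covariate. In the second set Hes1 was −0.93 with the thyrocyte and Nrarp −0.18 with the mural covariate. For aN1aN2 against aJ1aJ2 the mural covariate gave Hes1 0.16 and Dtx1 0.21 at 15 hours and Hey2 −0.20 at 5 days, when Hes1 was 0.30 and 0.19 with the endothelium and muscle covariates and Dtx1 0.11 with weights. For the change of the aJ1aJ2 effect to 5 days Hes1 was 0.32 with the mural covariate and Dtx1 −0.88 with weights. For that of aN1aN2 Hes1 was 0.08 and 0.28 with the endothelium and muscle covariates, and Dtx1 −0.09 with the parathyroid covariate and −0.35 with weights.

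Leaving out single libraries changed signs within these ranges: after aJ1aJ2 at 15 hours Hes1 −0.06 to 0.24, Hey1 −0.05 to 0.06 and Dtx1 −0.12 to 0.33; after aN1aN2 Dtx1 −0.26 to 0.09 at 15 hours, and Hey2 −0.34 to 0.19, Nrarp −0.30 to 0.95 and Dtx1 −0.09 to 0.47 at 5 days; Nrarp −0.10 to 0.30 in the second set. For aN1aN2 against aJ1aJ2 they were −0.64 to 0.06 (Nrarp) and −0.41 to 0.05 (Dtx1) at 15 hours and −0.36 to 0.09 (Hes1) at 5 days. For changes with time they were −0.30 to 0.13 (Hes1) and −0.04 to 0.53 (Dtx1) for aN1aN2 and −0.32 to 0.38 (Nrarp) for aJ1aJ2 to 7 days. Over all genes, calls after aJ1aJ2 at 5 days went from 33 to 197 without replicate 3 of RW, and from 0 to 3475 over other settings. Those in the second set went from 3 to 8214. Counting error limited Hes5, with 22 counts in all, and Nrarp at 5 days, where its level was lowest.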
